A study of Mus musculus with 19 samples.

Results

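The 10 genes described here belong to the YAP/TEAD pathway, as read in hepatic stellate cells (HSCs), the vitamin A storing pericytes of the liver, during their first days in culture. They were taken by name. Yap1, Wwtr1 (which encodes TAZ) and Tead1 form the transcriptional core. Ankrd1, Ccn1, Ccn2 and Axl are targets that encode a nuclear and sarcomeric ankyrin repeat protein, a pair of secreted matricellular proteins and a receptor tyrosine kinase. Amotl2, Lats2 and Ajuba are targets whose products act back on the pathway. All 10 members were in the table of 55487 genes, and all 10 were among the 15138 genes that passed the filter on low counts. Ankrd1, Ccn2 and Axl also stand in gene programs that the study derived for HSCs, in the case of its early program partly from these same samples, so their direction is not independent of that choice.

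YAP and TAZ are transcriptional co-activators without a DNA-binding domain of their own. The kinases LATS1 and LATS2 phosphorylate them and keep them in the cytoplasm, and when this restraint is lifted, for instance in spread cells on a stiff surface, they enter the nucleus and bind TEAD factors on target genes. In HSCs the pathway is known for its part in the change from a quiescent to a myofibroblast-like cell, and Ccn2, also named connective tissue growth factor, is a long-known fibrogenic product of that change.

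HSCs of healthy male Balb/c mice, 23 to 24 weeks old, were sorted by the ultraviolet fluorescence of their retinoid droplets. Cells were lysed without plating (0 h, 2 samples) or kept on collagen-coated plastic in DMEM with 10% fetal bovine serum for 3, 6, 12, 18 or 96 h (3 samples each) or 24 h (2 samples), with no other agent added and with medium changes at 3 h and 24 h. Every sample joins 2 technical repeats, and the labels give no animal for any sample, so p-values measure the spread between these samples. No unplated cells were held for later timepoints, so that attachment, serum, substrate and elapsed time cannot be told apart. Of the replicate numbers in the labels, 1 and 3 carry 1 isolation date and 2 carries another.

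Total counts ran from 2073171 to 7690892 per sample (median 4954915), and the 0 h library of replicate 3 was the smallest. All 14 HSC markers had counts at 0 h, where their summed level was 32930 and 38390 CPM (counts scaled to library totals adjusted by TMM), and 12 of 14 had counts at 96 h, where the sum was 3040 to 3389 CPM and Ngfr and Gfap were at 0. Markers of other liver cells moved with time too: the 10 hepatocyte markers summed to 3307 and 7355 CPM at 0 h and to 23.4 to 78.9 CPM at 96 h, the 10 endothelial markers to 777 to 1139 CPM at 0 h, 920 to 2980 CPM at 3 h and 13.1 to 231 CPM at 96 h, and the 10 Kupffer cell and leukocyte markers to 304 to 322 CPM at 0 h and 10.0 to 23.3 CPM at 96 h. Cholangiocyte markers never passed 6.06 CPM in sum, with Krt19 and Krt7 at 0 throughout, and portal fibroblast and mesothelial markers never passed 11.03 CPM, with Msln at 0 throughout. The mitochondrial share of counts was 3.62 to 13.98% and highest in both 0 h libraries. The part of these shifts in the results was not tested, and in bulk RNA fewer cells of a type and less RNA per cell cannot be told apart.

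Promoter sequence was searched for the motif of the pathway. Most members are known as YAP/TEAD targets, so the count of motifs among them is a description that is not independent of their choice. TEAD factors are known to bind GGAATG, and RefSeq promoters (build GRCm38.p6) were found for 8 of the 10 members, Ccn2 and Tead1 having no entry. In the 250 bases before the start site, 7 of the 8 held GGAATG or its reverse complement CATTCC, whereas 12.6% of 32851 promoters of the same length did. A member was counted if any of its listed starts had a match, while the 12.6% is a share of listed starts. The 30 bases around each match are shown because they are the sequence that this pathway is known to read, written 5′ to 3′ on the strand of the gene, with the match in capitals and its distance from the start site given after the list.
Ankrd1, chr19:36120037-36120066, minus strand: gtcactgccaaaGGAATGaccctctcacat
Ankrd1, chr19:36119950-36119979, minus strand: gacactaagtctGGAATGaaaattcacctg
Ccn1, chr3:145650071-145650100, minus strand: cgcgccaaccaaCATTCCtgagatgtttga
Axl, chr7:25788949-25788978, minus strand: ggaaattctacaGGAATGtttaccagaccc
Amotl2, chr9:102717727-102717756, plus strand: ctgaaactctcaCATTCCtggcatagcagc
Ajuba, chr14:54577830-54577859, minus strand: cgttgatggataCATTCCacagtgcccctc
Ajuba, chr14:54577808-54577837, minus strand: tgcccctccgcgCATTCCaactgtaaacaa
Wwtr1, chr3:57576029-57576058, minus strand: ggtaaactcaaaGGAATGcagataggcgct
Yap1, chr9:8004720-8004749, minus strand: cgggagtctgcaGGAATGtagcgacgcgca

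The matches began 210 and 123 bases upstream of the start for Ankrd1, 103 for Ccn1, 233 for Axl, 65 for Amotl2, 186 and 164 for Ajuba, 141 for Yap1 and, from its 2 listed starts, 136 or 170 for Wwtr1. The Ankrd1 and Ajuba promoters each held the motif at 2 places. Neither of the 2 listed starts of Lats2 had a match. Both windows, which end at 57746373 and 57734668, lie inside the GENCODE vM21 gene, which on the minus strand starts at 57758388. The bases before that GENCODE start were not searched. In the GENCODE vM21 models, which start further upstream, all 250 bases of the Ankrd1 window and 136 of the 250 bases of the Amotl2 window fall in an exon of the same gene. The AP-1 motif TGANTCA, present in 6.75% of all promoters, and the CArG box of serum response factor, present in 1.47%, were in none of the member windows on either strand, so no TEAD match overlapped one. A match is a description of letters, and the promoters of members that moved (Ankrd1, Ccn1) and of members that did not pass the test (Ajuba) both held it.

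To ask when the pathway genes moved, each timepoint was compared with 0 h in a fit of all 19 samples with edgeR's quasi-likelihood test, and calls needed both an adjusted p (Benjamini-Hochberg over the 15138 genes) below 0.1 and a fold above 2. All 6 of these comparisons share the same 2 samples at 0 h. Over the 7 timepoints together, 9 of the 10 members changed (adjusted p below 0.1), where 27.4% of all genes did, and Ajuba was the exception (adjusted p = 0.47). At 3 h 1 member was upregulated, Wwtr1, beside 4.19% of all genes. At 6 h 6 members were upregulated (Wwtr1, Tead1, Ankrd1, Ccn1, Ccn2 and Axl), beside 6.98% of all genes, and these 6 were again called at 12 h (8.6% of all genes) and at 18 h (7.64%). At 24 h 5 were called (5.65% of all genes), and Tead1 fell short of the fold of 2 only (adjusted p = 0.071). At 96 h 3 were called (5.83%), namely Ankrd1, Ccn2 and Axl. Without replicate 3 at 0 h the number at 24 h was 3.

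No member was called lower than at 0 h by edgeR. The share of all genes called lower was 1.39, 4.35, 9.1, 8.21, 3.86 and 5.03% at 3, 6, 12, 18, 24 and 96 h. Of 10 members, 0 is near these shares, so the absence of lower calls is not read as a trait of the members. The same holds for each count of 0 given below beside such a share. At an unadjusted p below 0.05 the number of members lower was also 0 in each of these comparisons, and DESeq2 called 0. No share of all genes at an unadjusted p is given here or below, so such counts of members have no background beside them. The median log2 fold change of the 10 members was 0.32, 1.24, 1.24, 1.15, 1.53 and 0.90 at the same timepoints in that order. Over all genes tested the median was 0 up to 24 h and 0.07 at 96 h.

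**Figure D1:**
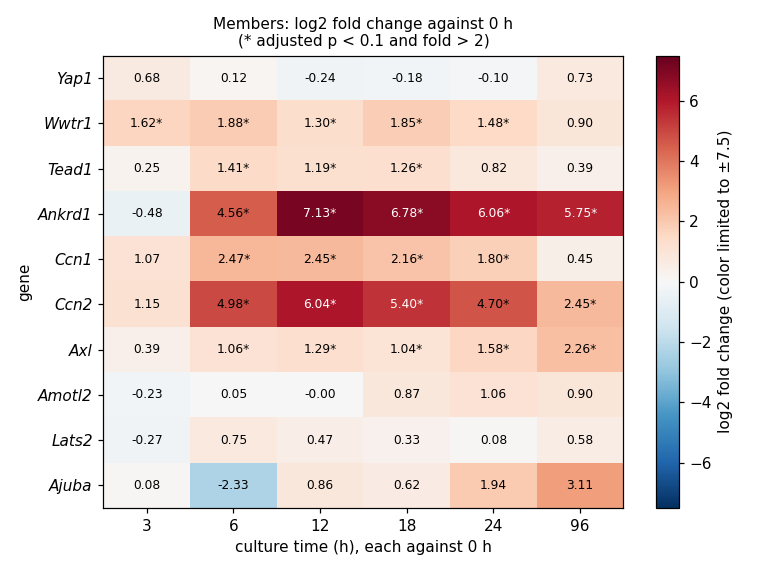
Log2 fold change of each of the 10 members at each timepoint against the 2 samples at 0 h, with an asterisk where the adjusted p was below 0.1 and the fold above 2. The asterisks begin with Wwtr1 at 3 h, fill 6 rows from 6 h to 18 h and are left for Ankrd1, Ccn2 and Axl at 96 h.

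The transcriptional core did not move as a unit. Yap1 (chromosome 9, 7931999 to 8004596, GRCm38) stood at 203 and 224 CPM at 0 h. At 3 h its level was 306, 353 and 368 CPM, at 6 h 214, 223 and 259 CPM, and at 12 h 156, 166 and 220 CPM. At 18 h it was 173 to 203 CPM, at 24 h 198 and 200 CPM, and at 96 h 326, 341 and 401 CPM. The course thus had a high level at 3 h and again at 96 h, 2 groups that overlapped each other, and no sample from 6 h to 24 h reached either of them. Yap1 changed over the course (adjusted p = 0.00066), but stayed within a fold of 2 in every comparison with 0 h: the log2 fold change was 0.68 ± 0.19 (SE) at 3 h (adjusted p = 0.053), -0.24 ± 0.18 at 12 h (adjusted p = 0.41) and 0.73 ± 0.19 at 96 h (adjusted p = 0.020). From 12 h to 96 h it was higher by 0.98 ± 0.17 (adjusted p = 0.00085).

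Wwtr1 (chromosome 3, 57455649 to 57575910), whose product TAZ is the paralog of YAP, was the earliest member to be called. It stood at 41.7 and 44.1 CPM at 0 h and at 99.7, 129 and 167 CPM at 3 h, with no overlap. Its highest mean was at 6 h, where the samples held 130, 151 and 193 CPM. Levels were then 86.8 to 130 CPM at 12 h, 131 to 176 CPM at 18 h and 106 and 134 CPM at 24 h, groups that overlapped the 3 h and 6 h samples. At 96 h the samples held 49.5, 87.3 and 103 CPM, all above 0 h.

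Against 0 h, Wwtr1 was higher in log2 terms by 1.62 ± 0.34 at 3 h (adjusted p = 0.0092), 1.88 ± 0.34 at 6 h (adjusted p = 0.0017), and its difference at 96 h was 0.90 ± 0.33 (adjusted p = 0.11). The call at 3 h was lost without replicate 3 at 0 h (1.57, adjusted p = 0.11) and held without replicate 2 at 0 h (1.70, adjusted p = 0.076). Without replicate 3 at 0 h the calls at 12 h (adjusted p = 0.12) and 24 h (adjusted p = 0.12) were lost too, and the 24 h call was also lost without replicate 2 at 0 h or replicate 1 at 24 h (adjusted p = 0.10 and 0.13).

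Tead1 (chromosome 7, 112679318 to 112906807), the DNA-binding partner, rose later than Wwtr1. It held 176 and 212 CPM at 0 h and 170, 220 and 303 CPM at 3 h, which overlapped. At 6 h the samples held 397, 539 and 614 CPM, at 12 h 382, 452 and 495 CPM and at 18 h 435, 435 and 521 CPM, all above every 0 h and 3 h sample. At 24 h it stood at 310 and 375 CPM, still above every 0 h and 3 h sample. The 96 h samples held 236, 248 and 278 CPM, within the range of the 3 h samples.

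For Tead1 the log2 fold change was 0.25 ± 0.24 at 3 h (adjusted p = 0.69), 1.41 ± 0.25 at 6 h (adjusted p = 0.0013), 1.19 ± 0.25 at 12 h (adjusted p = 0.0032) and 0.39 ± 0.24 at 96 h (adjusted p = 0.37). At 24 h it was 0.82 ± 0.26 (adjusted p = 0.071), under the fold of 2, and with library size only Tead1 was called there (1.09, adjusted p = 0.012). With the scaling factors of DESeq2 the 12 h value was 0.96 (adjusted p = 0.013), under the fold of 2. The step from 3 h to 6 h was 1.16 ± 0.21 (adjusted p = 0.0059), and 0.94 (adjusted p = 0.043) without replicate 3 at 3 h.

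**Figure D2:**
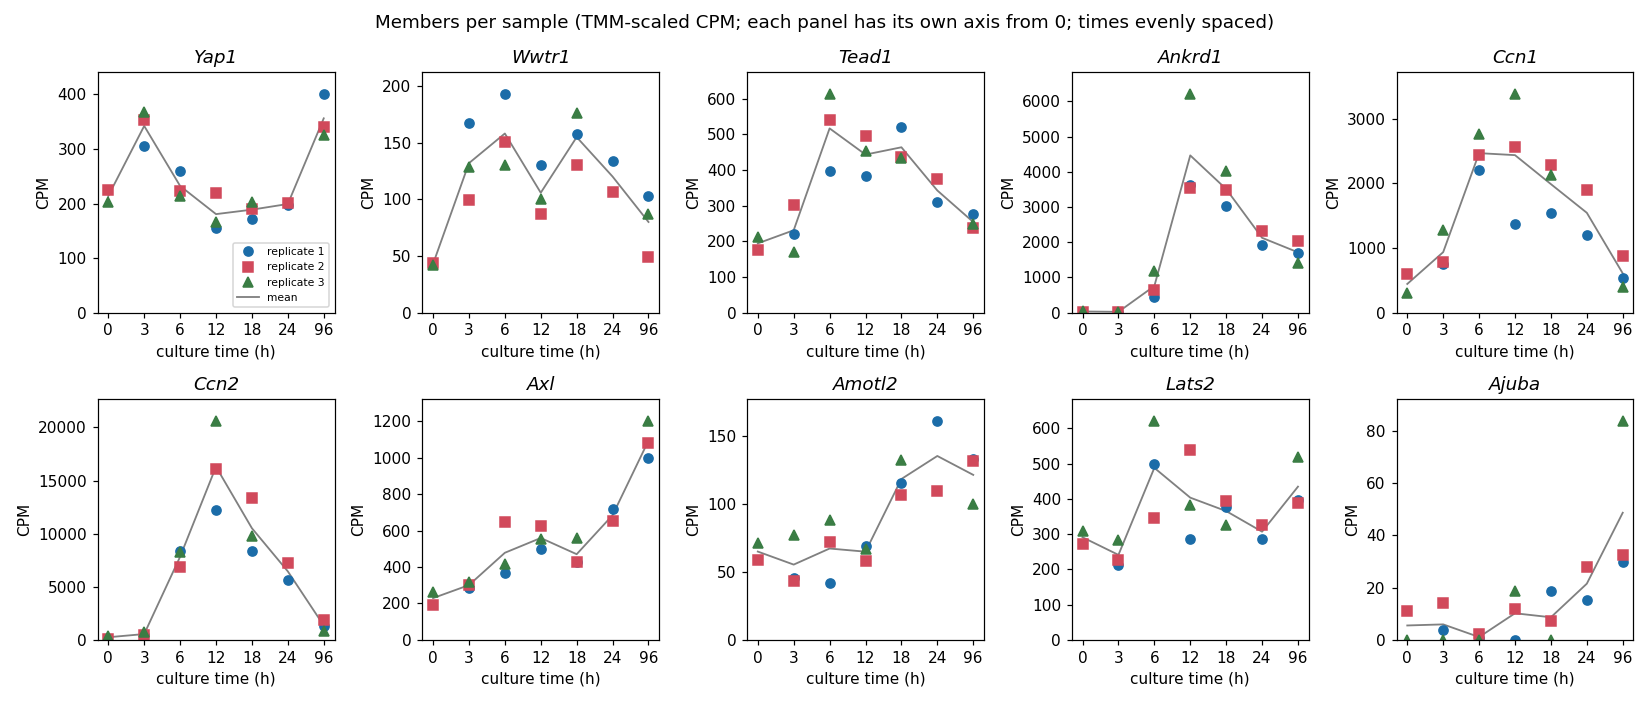
Level of each member in every sample, in CPM (vertical axis, from 0, own scale per gene), against culture time (horizontal axis, evenly spaced), with a symbol per replicate number and a line through the means. Ankrd1 and Ccn2 are near the floor of their axes at 0 and 3 h and peak at 12 h, Axl is highest at 96 h, and Yap1 is high at 3 h and 96 h.

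Among the targets, Ankrd1 (chromosome 19, 36111961 to 36120099), a stress-responsive transcript that is among the most used YAP readouts, had the largest fold. It held 7.52 CPM in replicate 2 and 58.2 CPM in replicate 3 at 0 h, and 18.5, 24.0 and 26.2 CPM at 3 h, between the 0 h samples. At 6 h it stood at 443, 631 and 1191 CPM. At 12 h it reached 3548, 3629 and 6214 CPM, above every sample of any other timepoint except that the 18 h samples, at 3016 to 4022 CPM, overlapped. It was at 1926 and 2322 CPM at 24 h and at 1408, 1695 and 2033 CPM at 96 h, still above every sample up to 6 h.

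Ankrd1 had a log2 fold change of -0.48 ± 0.57 at 3 h (adjusted p = 0.78), 4.56 ± 0.67 at 6 h (adjusted p = 0.00029), 7.13 ± 0.76 at 12 h (adjusted p = 7.4e-06) and 5.75 ± 0.71 at 96 h (adjusted p = 5.7e-05). The size of these values depended on which 0 h library was used: at 12 h the log2 fold change was 9.19 without replicate 3 at 0 h and 6.26 without replicate 2, and at 96 h 7.82 and 4.87. Without replicate 3 at 0 h, the 3 h value turned to 1.59 (adjusted p = 0.15). Within the isolation dates, the log2 difference of 12 h from 0 h was 8.80 in replicate 2 and 6.73 in replicate 3. Ankrd1 was the sole member to be called between 6 h and 12 h (0.416% of all genes were called higher), by 2.56 ± 0.50 (adjusted p = 0.016).

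Ccn2 (chromosome 10, 24595442 to 24598683) reached the highest counts of any member. It held 114 and 384 CPM at 0 h and 426, 499 and 724 CPM at 3 h, with no overlap although the comparison did not pass the test (log2 fold change 1.15 ± 0.43, adjusted p = 0.19). At 6 h the samples stood at 6863, 8252 and 8378 CPM, and at 12 h at 12216, 16086 and 20611 CPM. At 18 h they held 8395, 9764 and 13382 CPM, at 24 h 5633 and 7272 CPM, and at 96 h 834, 1320 and 1902 CPM.

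The 96 h samples of Ccn2 were thus under every sample from 6 h to 24 h and over every sample at 0 h and 3 h. Its log2 fold change was 4.98 ± 0.52 at 6 h (adjusted p = 1.4e-05), 6.04 ± 0.55 at 12 h (adjusted p = 1.7e-06), 4.70 ± 0.53 at 24 h (adjusted p = 2.3e-05) and 2.45 ± 0.46 at 96 h (adjusted p = 0.0022). The size also turned on the 0 h libraries, being 7.14 at 12 h without replicate 3 at 0 h and 5.41 without replicate 2, and at 96 h 3.55 and 1.81. Without replicate 3 at 0 h Ccn2 was called at 3 h already (2.26, adjusted p = 0.011).

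Ccn1 (chromosome 3, 145646976 to 145649981), which encodes CYR61, a relative of the Ccn2 protein, moved less. It held 297 and 590 CPM at 0 h and 747, 786 and 1274 CPM at 3 h. The 6 h samples, at 2201, 2439 and 2761 CPM, overlapped with those of 12 h, at 1368, 2554 and 3385 CPM, and of 18 h, at 1546, 2126 and 2290 CPM. At 24 h the level was 1193 and 1895 CPM. At 96 h it was 397, 543 and 883 CPM, which overlapped with 0 h.

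Ccn1 differed from 0 h on the log2 scale by 1.07 ± 0.41 at 3 h (adjusted p = 0.21), 2.47 ± 0.44 at 6 h (adjusted p = 0.0015), 2.45 ± 0.44 at 12 h (adjusted p = 0.0011), 1.80 ± 0.45 at 24 h (adjusted p = 0.020) and 0.45 ± 0.41 at 96 h (adjusted p = 0.57). The 24 h call was lost without replicate 3 at 0 h (1.39, adjusted p = 0.19) or replicate 2 at 24 h (1.43, adjusted p = 0.18). With the replicate block, which pairs samples of the same number, Ccn1 was called at 3 h as well (1.26, adjusted p = 0.076).

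Axl (chromosome 7, 25757273 to 25788705), a receptor for the ligand GAS6, was highest at 96 h, unlike Ankrd1, Ccn1 and Ccn2. It held 193 and 266 CPM at 0 h, 284 to 317 CPM at 3 h, 369, 419 and 647 CPM at 6 h, 499 to 623 CPM at 12 h and 425 to 558 CPM at 18 h. It then stood at 652 and 717 CPM at 24 h and at 999, 1082 and 1202 CPM at 96 h, above every other sample. The log2 fold change was 1.06 ± 0.23 at 6 h (adjusted p = 0.0066), 1.29 ± 0.23 at 12 h (adjusted p = 0.0011), 1.04 ± 0.23 at 18 h (adjusted p = 0.0061), 1.58 ± 0.25 at 24 h (adjusted p = 0.00056) and 2.26 ± 0.24 at 96 h (adjusted p = 1.5e-05). The calls at 6 h and 18 h lay close to the fold of 2 and were lost under the scaling factors of DESeq2 (0.82 and 0.80) and without replicate 2 at 0 h, where the adjusted p was 0.16 and 0.18. In all, the 6 h call was lost in 5 alternatives, among them without replicate 2 at 6 h (0.74), and the 18 h call in 12, of which 9 left out a library (any at 3 h, either at 24 h, replicate 2 at 0, 6 or 12 h, or replicate 3 at 18 h), with log2 fold changes from 0.76 to 0.99.

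None of the members that feed back on the pathway was called against 0 h in the main fit, although Amotl2 was higher in its late samples than in its early ones. Lats2 (chromosome 14, 57689662 to 57758388), the kinase that phosphorylates YAP and TAZ, held 272 and 310 CPM at 0 h, 212, 227 and 284 CPM at 3 h, 345, 498 and 621 CPM at 6 h and 389 to 518 CPM at 96 h. It was not called against 0 h at any timepoint, with log2 fold changes from -0.27 ± 0.26 at 3 h to 0.75 ± 0.27 at 6 h (adjusted p = 0.70 and 0.11). From 3 h to 6 h it rose by 1.02 ± 0.24 (adjusted p = 0.026), a value close to the fold of 2 that lost its call in 12 of the alternatives, among them without replicate 1 or 2 at 3 h or replicate 3 at 6 h (adjusted p = 0.12, 0.11 and 0.12). Its adjusted p for any change was 0.052, and 0.12 without replicate 1 or without replicate 2 at 3 h.

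Amotl2 (chromosome 9, 102716672 to 102733418), a scaffold that binds YAP at cell junctions, held 58.9 and 71.3 CPM at 0 h, 41.8 to 88.2 CPM at 6 h and 58.3 to 69.5 CPM at 12 h. It stood at 107 to 133 CPM at 18 h, 110 and 161 CPM at 24 h and 99.9 to 133 CPM at 96 h, so that every sample from 18 h on was above every sample up to 12 h. It changed over the course (adjusted p = 0.016). Compared with 0 h, the log2 difference was 0.87 ± 0.34 at 18 h, 1.06 ± 0.37 at 24 h and 0.90 ± 0.34 at 96 h, and none passed the test (adjusted p = 0.12, 0.11 and 0.13). With the replicate block Amotl2 was called at 24 h (1.19, adjusted p = 0.089), as it was without replicate 3 at 3 h or replicate 1 or 3 at 6 h (adjusted p = 0.098, 0.065 and 0.087). With library size only it was called at 18, 24 and 96 h (adjusted p = 0.047, 0.034 and 0.076).

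Ajuba (chromosome 14, 54567472 to 54577558), a LIM protein that can restrain LATS kinases, was counted unevenly. It had a count of 0 in 5 of the 16 libraries up to 24 h, where its highest level was 27.8 CPM, and held 29.8, 32.3 and 83.7 CPM at 96 h. The 96 h samples were thus above every other sample, but the log2 fold change against 0 h, where replicate 3 had a count of 0, was 3.11 ± 2.48 (adjusted p = 0.51). A difference between timepoints was not detectable for Ajuba beyond this spread.

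To see in which interval the members moved, successive timepoints were compared. From 3 h to 6 h 5 members rose (Tead1, Ankrd1, Ccn1, Ccn2 and Lats2), beside 2.5% of all genes, and 0 fell, beside 1.99%. The step was 5.05 ± 0.57 for Ankrd1 (adjusted p = 0.00020), 3.83 ± 0.41 for Ccn2 (adjusted p = 0.00018) and 1.40 ± 0.36 for Ccn1 (adjusted p = 0.043). At an unadjusted p below 0.05 6 members were higher and 1 lower, and DESeq2 called 4 higher and 0 lower. The number called was 3 without replicate 1 or 2 at 3 h or replicate 3 at 6 h. The step of Ccn1 lost its call without any of 4 libraries (replicates 1 and 2 at 3 h, replicates 2 and 3 at 6 h), with adjusted p from 0.10 to 0.20.

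After 6 h few steps passed. From 6 h to 12 h Ankrd1 was the only member called higher and 0 were called lower (1.42% of all genes were), with 2 higher and 1 lower at an unadjusted p below 0.05. The step of Ccn2 was 1.06 ± 0.37 (adjusted p = 0.22), and it was called by DESeq2 (adjusted p = 0.052) and without replicate 3 at 0 h (adjusted p = 0.092). From 12 h to 18 h and from 18 h to 24 h edgeR and DESeq2 each called 0 members, and 1 member was higher and 0 lower at an unadjusted p below 0.05 in each interval. Few genes at all were called in these intervals: 0.0727% higher and 0.152% lower in the former, 0.0132% and 0.0264% in the latter. From 24 h to 96 h Ccn2 fell by 2.25 ± 0.41 (adjusted p = 0.0067), beside 1.35% of all genes called lower, and 0 members were called higher by edgeR or by DESeq2 (1.37% of all genes were; 2 members were higher at an unadjusted p below 0.05). The difference for Ccn1 over that interval was -1.35 ± 0.39 (adjusted p = 0.11), and with the replicate block it was called (-1.37, adjusted p = 0.057), as it was without replicate 3 at 0 h, replicate 1 or 3 at 12 h or replicate 2 at 96 h, where the number of members called was 2.

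The 96 h cells were set against the 12 h cells, where Ankrd1 and Ccn2 had their highest means, to ask which members stayed high. These means come from the same samples, so a fall of Ankrd1 or Ccn2 from 12 h is favored by the choice. Their p-values for this comparison are not independent of it. Ankrd1, Ccn1 and Ccn2 were called lower, 3 members beside 6.57% of all genes. Ccn2 fell by 3.59 ± 0.41 (adjusted p = 2.1e-05) and Ccn1 by 2.00 ± 0.37 (adjusted p = 0.0017), and every 96 h sample of either gene was under every 12 h sample. In replicates 1, 2 and 3 the log2 difference of Ccn2 was -3.21, -3.08 and -4.63. Ankrd1 fell by 1.38 ± 0.48 (adjusted p = 0.084), a call that was lost when any of 11 libraries was left out (any at 3 h or 96 h, either at 24 h, replicate 2 at 6 h, or replicate 2 or 3 at 12 h), with adjusted p up to 0.26 without replicate 3 at 12 h. It was also lost with the isolation date as a covariate (adjusted p = 0.10), with the scaling factors of DESeq2 (adjusted p = 0.11) and with library size only (adjusted p = 0.10).

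No member was called higher at 96 h than at 12 h by edgeR, where 6.96% of all genes were, and 0 of 10 members is near that share. At an unadjusted p below 0.05 3 members were higher, and DESeq2 called 2. In both directions together, edgeR called 2048 and DESeq2 2809 of the 15138 genes. Axl, at 0.97 ± 0.20 (adjusted p = 0.0041), and Yap1, at 0.98 ± 0.17 (adjusted p = 0.00085), fell short of the fold of 2 only, and both passed it with the scaling factors of DESeq2 (1.05 and 1.07). Amotl2 stood at 0.90 ± 0.30 (adjusted p = 0.070). Tead1 was lower by -0.80 ± 0.21 (adjusted p = 0.021), also within a fold of 2. The members thus held differences of both signs over this interval, with a median of -0.15 where that of all genes was 0.09.

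**Figure D3:**
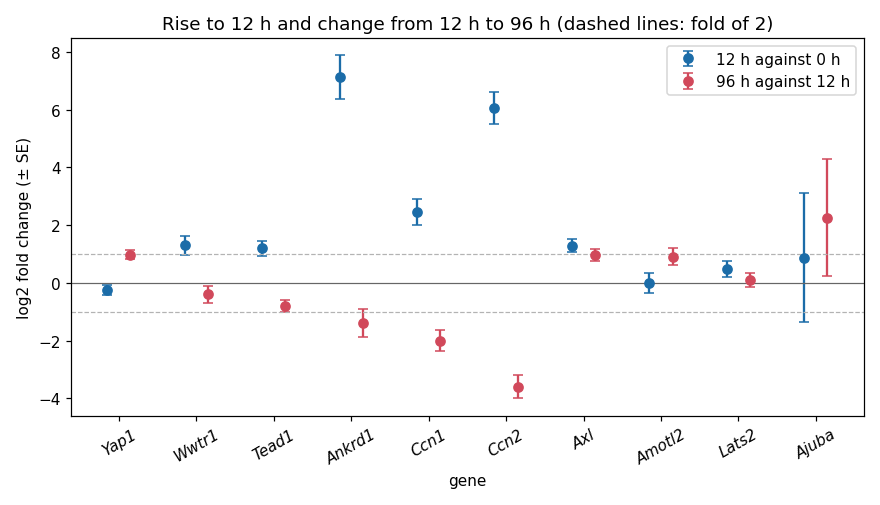
Log2 fold change with its standard error for each member from 0 h to 12 h (blue) and from 12 h to 96 h (red), with dashed lines at a fold of 2. Ankrd1, Ccn1 and Ccn2 are high in blue and below the lower line in red, whereas Axl is above 0 in both colors.

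Because counts of 2 genes in 1 library share its depth, their ratio needs no scaling between libraries, and 4 such ratios were tested over the 7 timepoints with a permutation test (100000 resamples, one-sided, Benjamini-Hochberg over 4). All 4 changed. The log2 ratio of Wwtr1 to Yap1 counts was -2.34 and -2.28 at 0 h, -1.82 to -0.87 at 3 h, -0.55 to -0.13 at 18 h and -2.78 to -1.90 at 96 h (permutation p = 0.00041, adjusted p = 0.00041). The ratio was thus lowest at 0 h and at 96 h, whose samples overlapped, and had its highest mean at 18 h. These are counts at the 3′ ends of different transcripts, so that the change of a ratio can be read and its absolute value cannot.

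The log2 ratio of Ccn2 to Ccn1 averaged -0.76 ± 0.16 (SD, n = 3) at 3 h, 2.81 ± 0.31 (n = 3) at 12 h and 1.15 ± 0.11 (n = 3) at 96 h. Its 0 h samples, at -2.37 and 0.37, lay far apart. The permutation p was 3e-05 (adjusted p = 5.3e-05). For Ankrd1 to Ccn1 the mean was -5.32 ± 0.68 at 3 h, 0.92 ± 0.47 at 12 h and 1.56 ± 0.32 at 96 h (n = 3 each, permutation p = 4e-05, adjusted p = 5.3e-05). The 0 h samples of this ratio, at -6.27 and -2.35, lay far apart too.

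Ankrd1 against Ccn2 had its lowest ratio at 3 h and its highest at 96 h. The log2 ratio was -3.90 and -2.71 at 0 h, -5.28 to -4.14 at 3 h, -4.24 to -2.79 at 6 h, -2.18 to -1.73 at 12 h and 0.10 to 0.76 at 96 h. Every 96 h sample was above every other sample. The permutation p was 1e-05, the smallest that these resamples can give (adjusted p = 4e-05).

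**Figure D4:**
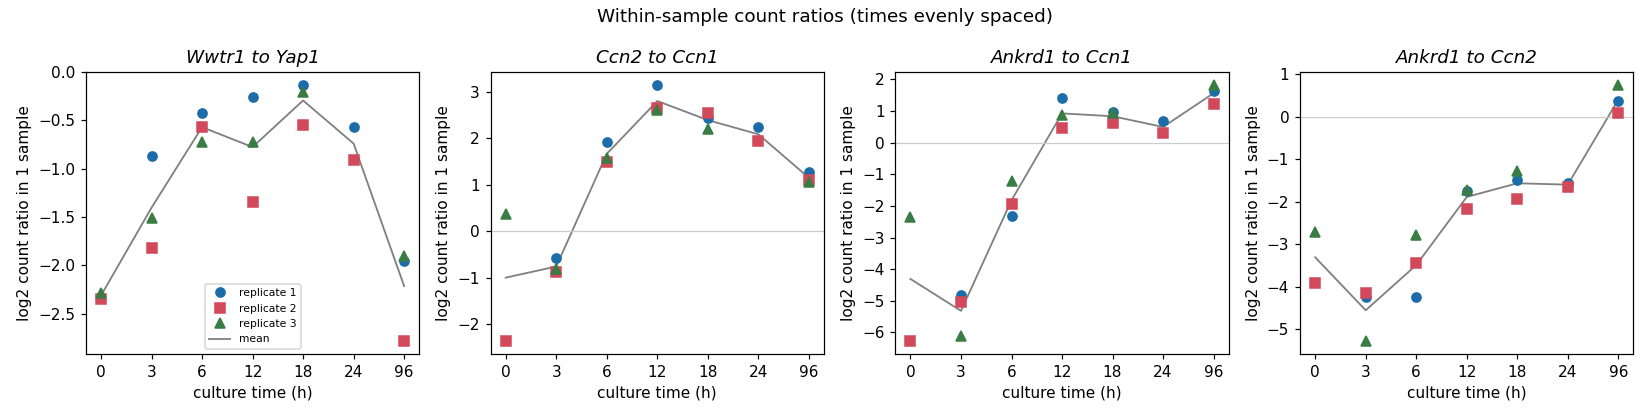
Log2 ratio of the counts of 2 members in the same sample (vertical axis) against culture time (horizontal axis, evenly spaced), with a symbol per replicate number and a line through the means. The Wwtr1 to Yap1 samples at 96 h overlap those at 0 h, while Ankrd1 to Ccn2 is highest at 96 h.

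Across the 19 samples the log2 levels of the members were related to a varying degree. Pearson's r ran from -0.61 (Yap1 with Ccn2) to 0.86 (Tead1 with Ccn2) over the 45 pairs, with a median of 0.24, and 32 pairs were above 0. These values are descriptions, since samples of 1 timepoint share their place in the course. Among 8572 other genes averaging 10 CPM or more, Tnc, which encodes the matrix protein tenascin C, had the pattern most like Ankrd1 (r = 0.99). Tnc rose in mean from 34.4 CPM at 0 h to 2311 CPM at 12 h and stood at 936 CPM at 96 h. It was followed for Ankrd1 by the helicase gene Ddx39 and by Tagln, which encodes the actin-binding protein transgelin (r = 0.97 each).

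For Ccn2 the nearest patterns were those of the kinase anchor gene Akap12 (r = 0.97), the mitochondrial chaperone gene Hspa9 and Mybbp1a (r = 0.96 each). Akap12 stood at 66.6, 5078 and 343 CPM in mean at 0, 12 and 96 h. For Ccn1 they were Foxp1, Ipo7 and Snhg6 (r = 0.96 each). Axl was nearest to Pls3 and Actb (r = 0.94 each) and Wdr1 (r = 0.91), which encode the actin-bundling protein plastin 3, beta-actin and an actin-disassembly factor, and Actb held 7498 CPM at 0 h and 23414 CPM at 96 h in mean. For Wwtr1 the nearest, Zc3h10, Rrp9 and Trmt13 (r = 0.83 to 0.88), were so by Pearson's r alone: by Spearman's rho they ranked 226, 214.5 and 20 of 8572 genes. Zc3h10 was at 0 in both 0 h libraries. By Spearman's rho Ddx39 and Tagln ranked 31.5 and 40 for Ankrd1, and Tnc ranked 2. For Axl, Pls3, Actb and Wdr1 ranked 1, 8 and 11 by that measure, and its top 3 were Pls3, Pomp and Ccnd2. For Ccn2, Akap12, Hspa9 and Mybbp1a ranked 11, 7.5 and 15.5, and its top 3 were Gar1, Lars and C1qbp. For Ccn1, Foxp1, Ipo7 and Snhg6 ranked 2, 11 and 1.

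The rest of the pathway was read from lists of further genes. Of the other TEAD and VGLL factors, 5 of 7 passed the filter and 1, Vgll3, changed over the course (adjusted p = 0.0065), beside 27.4% of all genes. Vgll3, which encodes a TEAD cofactor, averaged 13.9 CPM at 0 h (9.28 and 18.6) and 94.2 CPM at 18 h (85.5 to 107), and was called from 12 h (2.21 ± 0.74, adjusted p = 0.059) through 18 h (2.77 ± 0.76, adjusted p = 0.024) and 24 h (2.57 ± 0.79, adjusted p = 0.060) to 96 h (2.66 ± 0.76, adjusted p = 0.037). The paralogs of Tead1 stood at lower levels than Tead1: Tead3 held 0 to 37.7 CPM, Tead2 0 to 21.5 CPM and Tead4 0 to 6.60 CPM over the samples. Tead2 had a count of 0 in all samples at 6 h and 12 h and was called lower at 12 h (adjusted p = 0.094), a call between 10.3 CPM in 1 of the 2 libraries at 0 h and none. No member of this list was called at 6 h, where 6.98% of all genes were called higher and 4.35% lower. At 12 h 1 was higher and 1 lower (8.6% and 9.1% of all genes), and at 18, 24 and 96 h 1 was higher and 0 lower.

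Of 27 other Hippo kinases, scaffolds and upstream regulators, 25 passed the filter and 7 changed over the course, beside the 27.4% of all genes, and DESeq2 gave 15, where it gave 5357 of the 15138 genes. At 6 h 3 were called higher and 0 lower (6.98% and 4.35% of all genes), at 12 h 3 and 3 (8.6% and 9.1%), and at 96 h 3 and 1 (5.83% and 5.03%). These counts turned on single libraries: the total was 1 at 6 h without either 0 h library, 2 or 3 at 12 h without replicate 3 or 2 at 0 h, and at 96 h 0 without replicate 2 at 0 h, 1 without replicate 1 at 96 h and 2 without replicate 3 at 0 h, replicate 1 at 3 h, replicate 2 at 96 h or either 24 h library. Map4k4, a kinase that can act on LATS, rose early, from 362 and 504 CPM at 0 h to 832 to 1274 CPM at 3 h (1.29 ± 0.26, adjusted p = 0.0075) and 1101 to 1420 CPM at 6 h (1.57 ± 0.26, adjusted p = 0.00094). Mob1a, the LATS co-activator, fell at 3 h (-1.33 ± 0.41, adjusted p = 0.093) and rose from there to 6 h (1.44 ± 0.38, adjusted p = 0.045). Fat1, a large cadherin upstream of the kinases, and Wtip, a LIM protein related to Ajuba, were called at 96 h (3.32 ± 1.12 and 1.22 ± 0.34, adjusted p = 0.082 and 0.033).

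Of 22 other genes in use as YAP/TAZ readouts, 20 passed the filter and 17 changed over the course, beside 27.4% of all genes. At 6 h 10 were called higher and 3 lower (6.98% and 4.35% of all genes), at 12 h 10 and 3 (8.6% and 9.1%), and at 96 h 9 and 3 (5.83% and 5.03%), with a total of 6 at 6 h and at 96 h without replicate 2 at 0 h. Its tested genes differed from 0 h by a log2 median of 1.74, 1.79 and 1.59 at 6, 12 and 96 h respectively, beside 0 to 0.07 over all genes.

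Rbms3 and Asap1 were not among the 10 readouts called higher at 6 h and at 12 h. Rbms3, an RNA-binding protein gene, fell from 578 and 720 CPM at 0 h to 109 to 147 CPM at 12 h (-2.39 ± 0.29, adjusted p = 2.7e-05). Asap1, a regulator of ARF GTPases, stayed within a fold of 2 of 0 h throughout, and was lower at 12 h than at 6 h (-1.13 ± 0.18, adjusted p = 0.0032). Over the 12 h to 96 h interval 4 readouts were called higher and 7 lower, beside 6.96% and 6.57% of all genes. Dock5, Edn1 and Birc5 had no counts in either 0 h library, so that their fitted folds are no measure of size.

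The other genes of the CCN family gave 2 of 4 that passed the filter. Ccn4, which encodes the protein WISP1, held 66.4 and 67.8 CPM at 0 h, 134 to 203 CPM at 3 h and 150 to 289 CPM at 6 h, and was called at 3, 6 and 12 h (1.70 ± 0.33 at 6 h, adjusted p = 0.0033). At 18 h it was at 63.9 to 68.7 CPM. Ccn5 had a count of 0 in every library up to 24 h and held 1.85 to 11.2 CPM at 96 h (adjusted p for any change = 0.077). It was not called at 96 h against 0 h (adjusted p = 0.25).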

How the data were processed

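RNA of 19 samples of cultured mouse HSCs was measured by 3′ mRNA sequencing (QuantSeq FWD, single-end, no molecular identifiers), 1 library per sample. The authors deposited raw counts per gene for all samples in 1 table, after mapping with STAR to GRCm38 (mm10) and assembly with StringTie, as their methods and processing notes say. The counting step, its strand setting and the annotation release are not given in the sources used here, and replicates were not pooled. Exons of Yap1 and Ccn2 overlap Gm20416 and Gm15270 on the opposite strand, and Lats2 overlaps Gm49361 on the same strand. These 3 genes had at most 17 counts in any library, but reads of a pair may have been given to either gene.

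Here the counts were fitted with edgeR 4.0.16 (limma 3.58.1, R 4.3.3): filterByExpr defaults (15138 of 55487 genes kept), TMM scaling, quasi-likelihood F tests with 1 coefficient per timepoint and no covariate, Benjamini-Hochberg adjustment over all genes tested. CPM use TMM-scaled library sizes, and log2 CPM for patterns used a prior count of 2. Ratios used counts plus 0.5. DESeq2 1.42.0, other scalings, no filter, the replicate block, the isolation date, the 2 compared groups alone, thinning to the smallest library, no fold threshold and leaving out each sample were alternatives. The scripts were tested on simulated data, and replicate files were checked for duplicates, of which there were 0. Promoters came from RefSeq and gene positions from GENCODE vM21.

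Same-numbered samples share an isolation label and date, which is taken to pair them. The deviations of same-numbered samples from their group means correlated weakly (mean r = 0.014 over 51 pairs of samples, -0.0070 over 103 pairs with different numbers). The 10 members, the lists and the ratios were chosen with earlier results of these data known. Named genes are all members, all TEAD paralogs, up to 4 genes per further list with the smallest adjusted p for any change, and the 3 genes with the pattern most like each of Ankrd1, Ccn1, Ccn2, Axl and Wwtr1. Genes named for a count of 0 (Dock5, Edn1, Birc5 and single markers) were chosen after their values were seen. Of the readout list, 2 genes that this rule names are not reported here.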

Additional observations from a re-analysis of the deposited data

How the results depend on the processing

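The adjusted p for any change kept its side of the threshold for 9 of the 10 members under every alternative, and for Lats2 rose to 0.11 with the scaling factors of DESeq2, 0.12 without replicate 1 at 3 h and 0.12 without replicate 2 at 3 h. All 4 ratios changed under every alternative. Another scaling moved the median log2 fold change of all genes, to -0.13 at 6 h and 12 h, -0.19 from 3 h to 6 h and 0.18 from 12 h to 96 h with the factors of DESeq2, and to 0.24 at 24 h and 0.22 at 96 h with library size only.

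At 3 h the number of members called was 2 with DESeq2 (1534 of all genes tested, 844 in the main fit), the replicate block (801) and adjusted p alone. From 6 h to 12 h it was 2 with DESeq2 (864, main fit 278). At 96 h it was 5 with library size only (1721, main fit 1644). From 24 h to 96 h (main fit 411) it was 2 with library size only (464), DESeq2 (844), no filter (347), the replicate block (426), thinning (402) and adjusted p alone. From 12 h to 96 h (main fit 2048) it was 5 with DESeq2 (2809) and thinning (2091) and 7 with adjusted p alone. The genes tested were 23696 with no filter, 13571 with thinning and 15138 otherwise. For adjusted p alone no number over all genes is given. The replicate block added Ccn1 at 3 h and from 24 h to 96 h and Amotl2 at 24 h (1.19, adjusted p = 0.089), and it changed no other call of a member. With each sample left out in turn the number of members called was 3 to 6 at 24 h, 3 to 5 from 3 h to 6 h, 1 to 2 from 6 h to 12 h and 1 to 2 from 24 h to 96 h. The further Hippo regulators called at 96 h were 2 with the isolation date as a covariate. The causes of these shifts were not tested.

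Differences near 0 turned sign. At 6 h Yap1 (0.12 as reported) was -0.11 with the factors of DESeq2 and -0.11 with DESeq2 itself, and Amotl2 (0.05) was -0.18 with both and -0.034 with thinning. At 12 h Amotl2 (0.00) was 0.093 with library size only, 0.039 with the replicate block and 0.012 with the 2 groups alone. With library size only Yap1 was 0.060 at 18 h and 0.18 at 24 h, and with the factors of DESeq2 and DESeq2 itself Lats2 at 24 h was -0.14. Leaving out samples moved Ankrd1 at 3 h from -1.31 to 1.59, Amotl2 from -0.19 to 0.30 at 6 h and from -0.13 to 0.12 at 12 h, Lats2 at 24 h from -0.038 to 0.18, and Ajuba from -1.58 to 7.91 at 3 h, -3.71 to 5.48 at 6 h, -0.13 to 8.66 at 12 h and -0.63 to 8.32 at 18 h, its high ends being those without the only 0 h library that held a count. The cause was not tested.

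Over all genes, edgeR and DESeq2 called 844 and 1534 genes at 3 h, 1715 and 2589 at 6 h, 1440 and 2229 at 24 h, 680 and 1338 from 3 h to 6 h, 278 and 864 from 6 h to 12 h, 34 and 424 from 12 h to 18 h, 6 and 229 from 18 h to 24 h, and 411 and 844 from 24 h to 96 h. With the 2 groups alone the last 3 were 7, 0 and 643, and with the replicate block the number from 18 h to 24 h was 2. With 2 samples at 0 h, that group bounds the precision of every comparison with it, and with 2073171 counts in its smaller library a gene under 1.51 CPM there had at most 3 counts. The replicates are libraries without molecular identifiers, so counts hold PCR copies.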
